A study of Mus musculus with 12 samples.

Results

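The AP-1, small MAF and ATF3 factors described here are 10 genes for basic leucine zipper transcription factors, Fos, Fosb, Fosl2, Jun, Junb, Jund, Maff, Mafk, Atf3 and Batf. Their RNA levels were compared across 12 Agilent 1-colour arrays of mouse CD8+ T cells. The genes were chosen by symbol with their values on these same arrays known, and each is represented by its brightest probe among those well above background on at least 2 arrays. All 10 had such a probe, out of 13882 named genes and 25738 features that were tested. 9 of the 10 were well above background on all 12 arrays, Atf3 was so on 8 arrays, and no gene of the 10 was lost to this filter.

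Total CD8+ T cells came from mice labelled AID KO, from uMT mice and from wild-type (WT) mice. Each knockout gave 1 array from the gut-draining mesenteric lymph nodes (MLN) and 1 from peripheral lymph nodes (PLN), and WT mice gave 2 arrays from each site. Naive CD8+ T cells, gated on low CD44, came from PLN of uMT mice and of mice labelled AID KO, and a Sca1p and a Sca1m fraction were sorted from each (Sca-1 positive and negative, as read from the sorting protocol), with 1 array each. All mice were female C57BL/6, and the labels give no treatment, age, number of animals per array or restriction of a mutation to 1 cell type. In uMT mice a disrupted membrane exon of the immunoglobulin mu chain stops B cell development. The submitters state that the design has no replicates, so the p-values below measure the departure of single arrays from additive terms for site, slide and genotype.

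Genotypes are given as labelled, and every direction below is that of arrays labelled AID KO or uMT. On each array 50.1% to 56.8% of the spots passed as well above background, and the scaling value, the 75th percentile, was an intensity of 432 to 787. All 5 measured CD8 T cell markers were well above background on every array. Of the B cell list, 4 of 8 markers were measured, Ms4a1 not being among them, and their summed level relative to the array's 75th percentile was 6.05 to 6.94 on total-cell arrays labelled AID KO, 4.88 to 5.83 on uMT arrays and 4.09 to 5.06 on WT arrays. In log2 relative to that percentile, Cd79b was at 1.96 to 2.76 on these arrays, and Cd79a, Pax5 and Cr2 were at -2.41 or below. The sum is therefore in effect the level of Cd79b, not a measure of B cells over 4 markers. For macrophages and monocytes, 3 of 5 markers were measured, Lyz2 and Adgre1 not being among them, and the sums were 1.76 to 2.84 on arrays labelled AID KO, 2.17 to 2.86 on uMT arrays and 2.96 to 3.72 on WT arrays. Only Cd68 separated these groups from WT, at log2 levels of 0.025 and 1.025 (AID KO), 0.587 and 1.067 (uMT) and 1.147 to 1.464 (WT). The knockout ranges of Csf1r and Cd14 overlapped those of WT, and Cd14 was at -3.37 or below. The gap in the sums is therefore that of Cd68, not of 3 markers. The sums of the 2 measured erythroid markers were 0.201 to 1.12 on arrays labelled AID KO, 0.741 to 4.98 on uMT arrays and 0.0852 to 2.58 on WT arrays, with a median log2 difference of 2.28 in uMT versus AID KO, 1.95 in uMT versus WT and 3.57 in MLN versus PLN. No marker of the 9 lists of cell types passed the test in AID KO versus WT or in uMT versus WT, and their part in the results below was not tested.

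AP-1 is a dimer, made of a JUN protein and a FOS protein or of JUN proteins alone, that binds TGACTCA in DNA. Many of its genes are induced within minutes of a stimulus, without new protein synthesis, and in T cells antigen receptor signals reach them through MAP kinases while calcium activates NFAT, which binds DNA together with AP-1 at genes such as Il2. ATF3 belongs to the ATF branch, which prefers the cyclic AMP response element (CRE) TGACGTCA, and BATF pairs with JUN proteins and binds beside IRF4 at composite sites in T cells. The small MAF proteins have no activation domain of their own, and pair with NRF2, NRF1 or BACH proteins at antioxidant response elements with the core TGACNNNGC.

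The promoters of the 10 genes were searched for those letters in the RefSeq windows of GRCm38.p6 that run from 250 bases before to 50 bases after each annotated start, on both strands. All 10 genes matched an entry, with 12 windows between them because Maff has 3. The palindromic CRE TGACGTCA was found in 1 of 10 genes, Maff, against 1.79% of all 32851 windows. Its shorter form TGACGT, which every full CRE also holds, was found in 4 of 10, Fos, Maff, Atf3 and Batf, against 7.51% of all windows. The antioxidant core TGACNNNGC was found in Maff and Mafk, against 12.4% of windows, the AP-1 site TGACTCA in 0 of 10 against 5.2%, and the CArG box that SRF binds in 0 of 10 against 1.63%. The gene counts take a match in any window of a gene and the percentages are of single windows, so they are unlike measures. Maff, with 3 windows, had more chances of a match. A match is a description of the letters, not a bound site, and no match speaks only of this window. The 4 windows with the CRE or its shorter form are shown because they set the induced genes Fos, Maff and Atf3 beside Batf, whose AID KO difference did not pass. Capitals mark TGACGTCA, or TGACGT on either strand, and each sequence is given along the strand of its gene. The windows are chr12:85473640-85473939 (plus strand) for Fos, chr15:79347270-79347569 (plus strand) for the second Maff start, chr1:191183284-191183583 (minus strand) for Atf3 and chr12:85686470-85686769 (plus strand) for Batf.
Fos: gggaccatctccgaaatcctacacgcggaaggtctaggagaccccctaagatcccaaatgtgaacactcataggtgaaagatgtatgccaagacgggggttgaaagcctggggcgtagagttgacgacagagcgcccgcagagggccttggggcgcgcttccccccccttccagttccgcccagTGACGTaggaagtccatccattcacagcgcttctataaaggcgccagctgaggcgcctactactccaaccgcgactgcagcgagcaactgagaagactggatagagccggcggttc
Maff: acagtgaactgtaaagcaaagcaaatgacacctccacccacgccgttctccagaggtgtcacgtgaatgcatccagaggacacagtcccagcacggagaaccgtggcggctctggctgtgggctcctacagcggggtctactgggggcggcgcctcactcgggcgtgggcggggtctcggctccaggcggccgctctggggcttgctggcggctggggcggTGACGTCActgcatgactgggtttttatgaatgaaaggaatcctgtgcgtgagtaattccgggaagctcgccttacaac
Atf3: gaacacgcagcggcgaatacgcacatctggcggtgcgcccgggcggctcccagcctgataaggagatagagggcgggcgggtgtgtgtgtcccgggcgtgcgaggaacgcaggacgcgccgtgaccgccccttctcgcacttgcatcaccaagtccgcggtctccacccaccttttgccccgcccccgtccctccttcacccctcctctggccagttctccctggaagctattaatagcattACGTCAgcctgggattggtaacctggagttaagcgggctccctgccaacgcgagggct
Batf: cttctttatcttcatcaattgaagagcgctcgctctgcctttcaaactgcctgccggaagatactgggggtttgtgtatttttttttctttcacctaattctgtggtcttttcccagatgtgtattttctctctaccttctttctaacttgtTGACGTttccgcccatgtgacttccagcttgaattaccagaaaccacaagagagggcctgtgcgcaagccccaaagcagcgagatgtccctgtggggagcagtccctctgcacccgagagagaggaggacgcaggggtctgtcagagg

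The first letter of the match stands 66 bases before the annotated start in Fos, 29 before in Maff, 8 before in Atf3 and 98 before in Batf. A match was present in Fos, Maff and Atf3, which were lower in the arrays labelled AID KO, and in Batf, which was not. Fosl2, Jun and Junb were also lower there and had no match in this window. A link between the match and the differences was not tested.

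Levels are given as the log2 of the processed intensity minus the log2 of the array's 75th percentile, so 0 is that percentile and 1 unit is a doubling. Differences were tested with limma in 1 fit over all 12 arrays, adjusted over all features by Benjamini-Hochberg and called at 0.05, and values after ± are standard errors of that fit. Levels of different genes come from different probes and are not compared.

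In total CD8+ T cells, the arrays labelled AID KO had less RNA of most of these factors than WT arrays, while the uMT arrays lay within or above the WT range for Fos, Fosb, Jun and Junb. In AID KO versus WT, 5 of the 9 genes measured on all arrays fell (Fos, Fosl2, Jun, Junb and Maff), 0 rose and 4 did not pass (Fosb, Jund, Mafk and Batf). The tenth gene, Atf3, was below background on the arrays labelled AID KO, so it is given as a bound and left out of the counts. Over all features, 0.657% were called lower in that comparison, but the genes were chosen with this contrast known, so nothing is read from the ratio. Of the 9 differences, 8 were below 0, and their median was -1.23, against 0.01 over all features. In 7 of the 9 genes both arrays labelled AID KO lay below all 4 WT arrays, which held for 8.23% of all features. In these bulk samples, fewer cells that express a gene and less RNA per cell cannot be told apart.

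**Figure D1:**
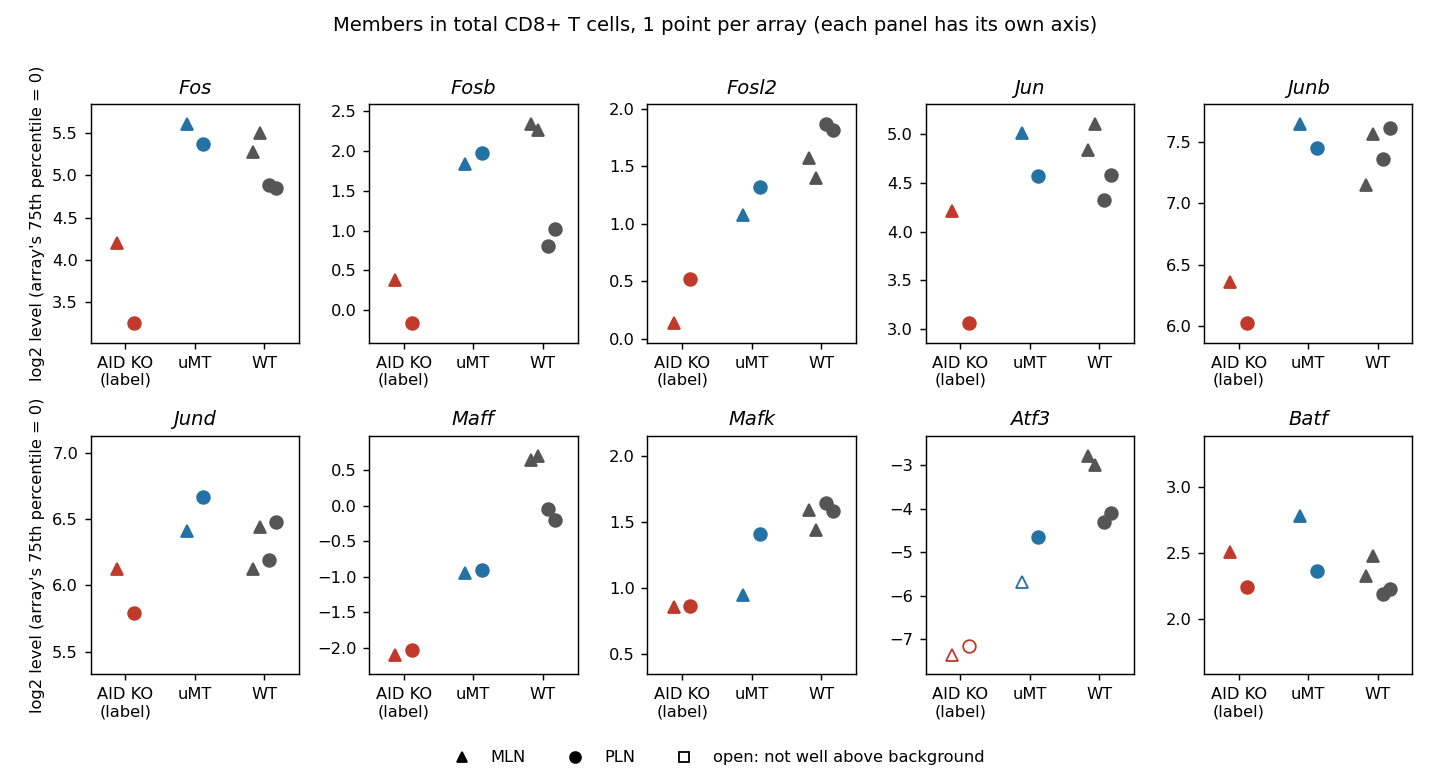
Log2 level of each of the 10 genes on the 8 arrays of total CD8+ T cells (vertical axis, array's 75th percentile at 0, a scale for each panel), by genotype label on the horizontal axis, with triangles for MLN, circles for PLN and open symbols where the probe was not well above background. Of the 9 genes measured on all arrays, the points labelled AID KO lie below all WT points in 7, the exceptions being Jund and Batf, and the Atf3 points labelled AID KO are open.

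Among the FOS proteins, Fos, the founding immediate early member of AP-1, had levels of 4.21 (MLN) and 3.25 (PLN) on the arrays labelled AID KO, 5.60 (MLN) and 5.37 (PLN) on uMT arrays, and 5.28 and 5.50 (MLN) and 4.88 and 4.85 (PLN) on WT arrays. The 2 arrays labelled AID KO were the lowest of the 8, and the uMT arrays lay in the upper part of the WT range or above it. Fos fell by 1.40 ± 0.11 in AID KO versus WT (adjusted p = 0.0122), a 2.63-fold difference, and differed by 0.36 ± 0.11 in uMT versus WT (adjusted p = 0.215). Fosb, which like FOS carries an activation domain, was at 0.38 (MLN) and -0.16 (PLN) on arrays labelled AID KO, at 1.83 (MLN) and 1.98 (PLN) on uMT arrays, and at 2.34 and 2.26 (MLN) and 0.81 and 1.02 (PLN) on WT arrays. The WT arrays split by site for this gene, MLN over PLN, and the fitted AID KO difference of -1.50 ± 0.32 did not pass (adjusted p = 0.109). Its uMT difference was 0.30 ± 0.32 (adjusted p = 0.644).

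Fosl2 encodes FRA-2, a FOS relative without that activation domain. Its levels were 0.14 (MLN) and 0.52 (PLN) on arrays labelled AID KO, 1.08 (MLN) and 1.32 (PLN) on uMT arrays, and 1.57 and 1.40 (MLN) and 1.87 and 1.82 (PLN) on WT arrays. The groups stood in 3 separate ranges, lowest in those labelled AID KO and highest in WT, with MLN below PLN in each. Fosl2 fell by 1.34 ± 0.09 in AID KO versus WT (adjusted p = 0.00623), the lowest p of the 10 genes, and its uMT difference was -0.47 ± 0.09 (adjusted p = 0.122).

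Of the JUN proteins, Jun, the main partner of FOS, was at 4.21 (MLN) and 3.06 (PLN) on arrays labelled AID KO, 5.01 (MLN) and 4.57 (PLN) on uMT arrays, and 4.84 and 5.10 (MLN) and 4.32 and 4.58 (PLN) on WT arrays. The MLN level was above the PLN level in each genotype, and the MLN array labelled AID KO, at 4.21, lay near the lower WT PLN array at 4.32. Jun fell by 1.07 ± 0.11 in AID KO versus WT (adjusted p = 0.0194) and differed by 0.08 ± 0.11 in uMT versus WT (adjusted p = 0.699). Junb, a JUN protein that in T cells pairs with FOS, FRA-2 and BATF, was at 6.36 (MLN) and 6.02 (PLN) on arrays labelled AID KO, 7.65 (MLN) and 7.45 (PLN) on uMT arrays, and 7.15 and 7.57 (MLN) and 7.36 and 7.62 (PLN) on WT arrays. Its uMT and WT ranges overlapped and those labelled AID KO stood apart below them, with a fall of 1.23 ± 0.15 (adjusted p = 0.0351).

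Jund, a JUN protein that resting cells also express, was at 6.13 (MLN) and 5.79 (PLN) on arrays labelled AID KO, 6.41 (MLN) and 6.67 (PLN) on uMT arrays, and 6.12 and 6.44 (MLN) and 6.19 and 6.48 (PLN) on WT arrays. The range labelled AID KO and the uMT range each overlapped the WT range but not each other. The overlap with AID KO was narrow, its highest level being 6.1258 and the lowest WT level 6.1237. Neither the AID KO difference of -0.35 ± 0.08 (adjusted p = 0.123) nor the uMT difference of 0.23 ± 0.08 (adjusted p = 0.237) passed.

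The small MAF gene Maff, which is itself induced by stimuli, had the largest measured fall among the genes that were well above background on all arrays. Its levels were -2.09 (MLN) and -2.03 (PLN) on arrays labelled AID KO, -0.95 (MLN) and -0.91 (PLN) on uMT arrays, and 0.64 and 0.70 (MLN) and -0.05 and -0.20 (PLN) on WT arrays. As for Fosl2, the groups stood in 3 separate ranges in the same order. Maff fell by 2.34 ± 0.23 in AID KO versus WT, a 5.05-fold difference (adjusted p = 0.0194), and its uMT difference was -1.20 ± 0.23, 2.30-fold, but did not pass (adjusted p = 0.122). Mafk, the more constant small MAF, was at 0.85 to 0.86 on both arrays labelled AID KO, at 0.95 (MLN) and 1.41 (PLN) on uMT arrays, and at 1.44 to 1.64 on the 4 WT arrays. The ranges were again separate, and neither the AID KO difference of -0.71 ± 0.12 (adjusted p = 0.0694) nor the uMT difference of -0.39 ± 0.12 (adjusted p = 0.212) passed.

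Atf3, a stress-induced member of the ATF branch that can repress transcription, was dim. It was not well above background on either array labelled AID KO, measured at -7.35 (MLN) and -7.16 (PLN), nor on the uMT MLN array at -5.69, while the uMT PLN array was at -4.64 and the WT arrays at -2.78 and -3.00 (MLN) and -4.31 and -4.10 (PLN). In the main processing its level was at least 2.72-fold lower in AID KO versus WT (a log2 bound of -1.44). This was computed against the lowest signal called well above background on the arrays labelled AID KO. The adjusted p in limma, 0.0444, belongs to the fitted difference of -3.71 (measured means -7.25 and -3.55), not to the bound. Atf3 passed the filter through its WT, naive and uMT PLN levels, so its being lower here is partly a result of that filter. Its call was lost in 14 of 20 alternatives. Over these the fitted difference ran from -4.46 to -0.85, so the bound does not hold in all of them. The uMT difference of -1.62 ± 0.51 did not pass (adjusted p = 0.217), and 1 of its 2 arrays measured the gene. Batf, which guides effector differentiation with IRF4, was at 2.51 (MLN) and 2.24 (PLN) on arrays labelled AID KO, 2.78 (MLN) and 2.37 (PLN) on uMT arrays, and 2.33 and 2.48 (MLN) and 2.19 and 2.23 (PLN) on WT arrays. These ranges overlapped, and Batf was the only gene of the 10 with an AID KO difference above 0, at 0.07 ± 0.10 (adjusted p = 0.836).

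**Figure D2:**
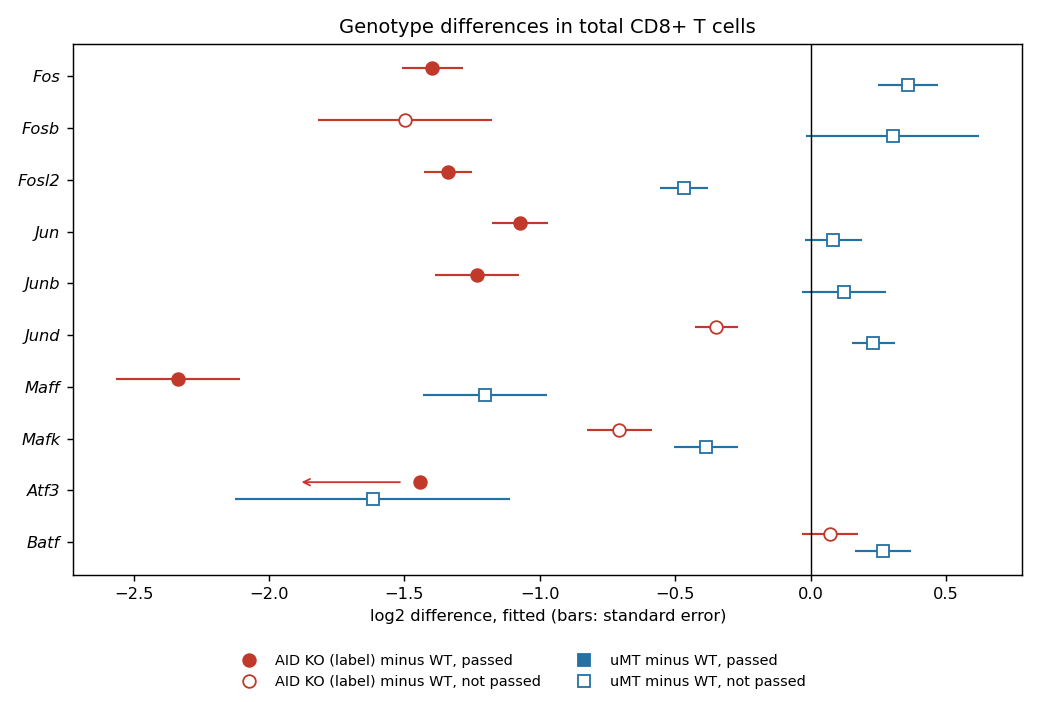
Fitted log2 difference from WT in total CD8+ T cells for each gene (horizontal axis), with red circles for arrays labelled AID KO, blue squares for uMT, bars for the standard error and filled symbols where the adjusted p was under 0.05. The Atf3 circle stands at its bound with an arrow, and Maff at -2.34 is the lowest of the other AID KO values, while no uMT value passed.

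Fosb, Fosl2, Junb and Jund had a further probe. The other Junb probe, well above background on all arrays, fell by 1.49 ± 0.12 in AID KO versus WT (adjusted p = 0.0129), and the other Jund probe differed by -0.49 ± 0.10 (adjusted p = 0.0901). In uMT versus WT the Junb probes disagreed in sign, at -0.24 ± 0.12 for the other probe (adjusted p = 0.349) against 0.12 ± 0.15 for the brightest. The other Fosb and Fosl2 probes were dimmer, well above background on 10 arrays and 1 array, and their AID KO differences were -1.94 ± 0.41 (adjusted p = 0.106) and -0.92 ± 0.27 (adjusted p = 0.204). The Fosb probes also disagreed in sign in uMT, where the dimmer one was at -0.19 ± 0.41 (adjusted p = 0.827).

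Each array labelled AID KO shared its slide with a WT array of its site, and the titles name that WT array as the control for PLN. In PLN the difference within the slide was below 0 for 8 of the 9 genes without Atf3, with a median of -1.26, and 5 genes were more than 1 unit lower, against 2.46% of all features. For MLN the same counts were 8 of 9 and 5, with a median of -1.21, against 2.28% of features. Between the WT arrays of 1 site, the second minus the first, the 10 genes differed by -0.15 to 0.29 in PLN and by -0.22 to 0.42 in MLN. A term for a different AID KO effect in MLN than in PLN passed for 0 of the 10 genes in limma and for 0% of all features, with 0 genes at an unadjusted p under 0.05. The PLN array labelled AID KO lay on slide 1 and the MLN array on slide 2. A difference of its effect by site therefore cannot be told apart from one by slide. For uMT the same kind of term passed for 0 of 10 against 0.00777% of features (adjusted p = 0.537 to 0.993). There, 3 genes and 2330 of all 25738 features had an unadjusted p under 0.05. The uMT MLN array lay on slide 1 and the uMT PLN array on slide 2, so the same limit holds for uMT.

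The calls depended on single arrays although the direction did not. Without WT PLN replicate 1 or either array labelled AID KO, 0 of the 9 genes passed in AID KO versus WT, without WT MLN replicate 1 or WT MLN replicate 2 it was 1, and without WT PLN replicate 2 it was 2. With each knockout array paired to the WT array of its slide and site as a block, 0 passed, and without a filter on dim probes 2 passed. With normexp background correction 7 passed. In each of these settings 8 of the 9 differences were below 0, and the median lay between -1.28 and -1.17. Dropping the filter left the median and range as in the main fit, so that setting is no separate check of direction.

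In uMT versus WT, 0 of the 10 genes passed in limma, against 0.035% of all features called in either direction. An unadjusted p under 0.05 was reached by 7 of the 10 genes and by 4532 of all 25738 features. Without Atf3, which 1 of the 2 uMT arrays did not measure above background, the 9 differences ran from -1.20 (Maff) to 0.36 (Fos), with a median of 0.12 against -0.01 over all features. Both uMT arrays lay below all 4 WT arrays for 3 of these 9 genes, Fosl2, Maff and Mafk, against 9.22% of features, and for 0 genes did both lie above all WT arrays. AID KO versus WT and uMT versus WT share the WT arrays, so their values are set side by side only. The median of the 9 was 0.18 for the uMT MLN array minus its WT array and -0.0051 for the uMT PLN array minus its WT array. Leaving out uMT MLN put the fitted median at -0.0072 with 5 differences below 0, and leaving out uMT PLN put it at 0.17 with 4 below 0.

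The knockouts were also compared with each other. In uMT versus AID KO, total cells, 3 of the 10 genes rose, Fos by 1.76 ± 0.13 (adjusted p = 0.0146), Jun by 1.16 ± 0.12 (adjusted p = 0.041) and Fosl2 by 0.87 ± 0.10 (adjusted p = 0.0484), against 0.218% of all features called higher. Atf3 had no fold here because it was not well above background on either array labelled AID KO or on 1 of the uMT arrays. The other 9 genes all had differences above 0, with a median of 1.13 and a range of 0.19 (Batf) to 1.80 (Fosb, adjusted p = 0.159). In 8 of these 9 both uMT arrays were above both arrays labelled AID KO, the exception being Batf, against 13.8% of all features. Junb differed by 1.36 ± 0.18 but did not pass (adjusted p = 0.0607), and its other probe did, at 1.25 ± 0.14 (adjusted p = 0.0445). With the block of matched pairs, with no filter on dim probes, or without any 1 of the 4 knockout arrays, WT PLN replicate 2 or either WT MLN array, 0 of the 10 passed. Without WT PLN replicate 1, without any 1 naive array, with total-cell arrays alone or with no slide term 1 passed. More passed with normexp background correction, at 6, and in the authors' value table and with a filter of 4 arrays, at 4 each.

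Between the sites, MLN versus PLN, 0 of the 10 genes passed in limma against 0.109% of all features. An unadjusted p under 0.05 was reached by 5 of the 10 genes and by 2344 of all 25738 features. Jun had the lowest adjusted p, at 0.65 ± 0.09 (adjusted p = 0.0925, and 0.00994 with normexp background correction, within a range of 0.00994 to 0.433 over its alternatives), followed by Fos at 0.56 ± 0.09 (adjusted p = 0.153). Fosl2 was at -0.33 ± 0.07 (adjusted p = 0.258), with its MLN level below its PLN level in each genotype. Without Atf3 the median was 0.27 against -0.02 over all features. The 2 measured erythroid markers had a median difference of 3.57 in the same contrast, and their part in these values was not tested.

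In naive CD8+ T cells the levels of some of these genes were higher on the arrays labelled AID KO, without passing the test. Fos was at 5.34 (Sca1p) and 5.36 (Sca1m) on uMT arrays, against 6.01 (Sca1p) and 5.94 (Sca1m) on arrays labelled AID KO. Jun was at 5.77 (Sca1p) and 5.44 (Sca1m) on uMT arrays, against 6.22 (Sca1p) and 5.97 (Sca1m) on arrays labelled AID KO, and Fosb at 2.20 and 2.15 against 2.73 and 2.58 in the same order. For these 3 genes the arrays labelled AID KO were the higher ones and the ranges did not overlap. Fosl2 ran the other way, at 1.45 (Sca1p) and 1.33 (Sca1m) on uMT arrays, against 0.94 (Sca1p) and 1.04 (Sca1m) on arrays labelled AID KO.

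The fit gave no call for these genes. In uMT versus AID KO, naive cells, 0 of the 10 genes passed in limma against 0.354% of all features called in either direction. An unadjusted p under 0.05 was reached by 4 of the 10 genes and by 2269 of all 25734 features. The differences were -0.62 ± 0.13 for Fos (adjusted p = 0.195), -0.49 ± 0.12 for Jun (adjusted p = 0.273), 0.40 ± 0.10 for Fosl2 (adjusted p = 0.285) and -0.48 ± 0.37 for Fosb (adjusted p = 0.89). Mafk, at 1.64 and 1.68 on uMT arrays and 2.02 and 1.97 on arrays labelled AID KO, differed by -0.34 ± 0.14 (adjusted p = 0.564). For Junb, Jund, Maff and Batf the differences were between -0.15 and -0.06, with Junb at 7.99 to 8.12 on uMT arrays and 8.05 to 8.24 on arrays labelled AID KO, and Maff at 0.83 to 0.93 and 0.96 to 1.11. Both uMT arrays lay below both arrays labelled AID KO for 6 genes, Fos, Fosb, Jun, Jund, Maff and Mafk, against 15.3% of features. Atf3 was not well above background on the Sca1m uMT array, at -4.95, and stood at -3.93 on the Sca1p uMT array, -2.92 on the Sca1p array labelled AID KO and -3.94 on the Sca1m array labelled AID KO.

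The Sca-1 fractions were set against each other within genotypes. In Sca1p versus Sca1m, naive cells, 0 of the 10 passed in limma against 0.0155% of all features, with 0 genes at an unadjusted p under 0.05. Ly6a, the gene of Sca-1, differed by 3.66 ± 0.31 between the same arrays (adjusted p = 0.0715). Apart from Atf3, which 1 of the 4 arrays did not measure above background, the differences ran from -0.05 (Jund) to 0.29 (Jun, adjusted p = 0.617). A term for a different fraction effect in uMT than in AID KO passed for 0 of 10 genes against 0.102% of features, with 0 at an unadjusted p under 0.05.

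Whether the genotype difference itself differed between preparations was tested as a difference of differences. The uMT minus AID KO difference was lower in naive than in total cells for Fos (-2.38 ± 0.18, adjusted p = 0.0205) and Jun (-1.64 ± 0.17, adjusted p = 0.0465). These 2 of 10 genes passed in limma, against 0.136% of all features called lower. Junb was at -1.45 ± 0.25 (adjusted p = 0.118), Jund at -0.66 ± 0.13 (adjusted p = 0.147) and Fosb at -2.28 ± 0.52 (adjusted p = 0.192). Leaving out Atf3, all 9 differences were below 0, with a median of -1.28 against 0.01 over all features. Naive cells were all from PLN and on a slide of their own, so the levels of naive and total cells are not compared, and the gate and the slide cannot be told apart in this contrast. Within PLN alone, uMT minus AID KO in total cells was 2.12 for Fos and 1.51 for Jun (1 array each, on different slides), against naive differences of -0.67 and -0.58 for Fos and -0.45 and -0.53 for Jun in the Sca1p and Sca1m fractions. Markers of NK cells were not well above background on any naive array (0 of 3 measured) and were on all total-cell arrays (3 of 3), and the part of other cells in the contrast was not tested. Without a naive array, 0 or 1 of the 10 genes passed, and without any 1 total-cell array it was also 0 or 1.

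**Figure D3:**
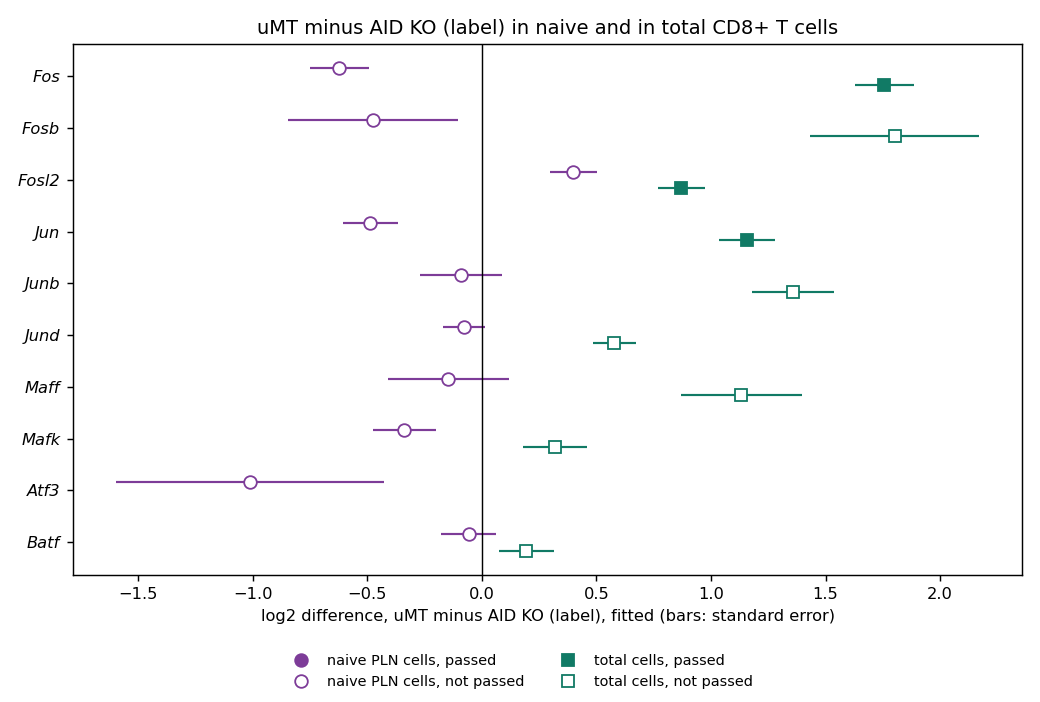
Fitted log2 difference, uMT minus AID KO by label (horizontal axis), for each gene in naive PLN cells (purple circles) and in total cells (green squares), with bars for the standard error and filled symbols where the adjusted p was under 0.05. Fos, Jun and Fosl2 pass in total cells at 1.76, 1.16 and 0.87, no gene passes in naive cells, and Atf3 in total cells is left out because it was not well above background on the arrays labelled AID KO.

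Among relatives, partners and upstream genes few passed the test. Of 20 measured genes of the other AP-1, ATF, CREB, MAF and CNC factors (27 listed), 1 fell in AID KO versus WT, 0 rose, and the median was 0.03. The gene that fell was Maf, a large MAF protein that drives interleukin genes in T cells, at -3.72 (MLN) and -4.28 (PLN) on arrays labelled AID KO against -3.21 to -2.94 on WT arrays, a fall of 0.87 ± 0.12 (adjusted p = 0.0424). That call was lost in 18 of 21 alternatives, with differences of -1.04 to -0.43 and adjusted p = 0.0266 to 0.529. None of the 19 MAP kinase and SRF genes that signal to AP-1 passed, with a median of -0.03, and none of the 5 NFAT and IRF partners, with a median of -0.05. Irf4, among these partners, was at -0.95 ± 0.16 (adjusted p = 0.0685). Crem, among the other factors, was at -1.03 ± 0.16 (adjusted p = 0.0621), and both were named after their values were seen. Differences were below 0 for 4 of the 5 partners and 9 of the 20 other factors.

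Of 17 early response genes outside AP-1, 4 fell in AID KO versus WT, 13 did not pass, and the list's median was -0.22. Egr1 and Egr2, zinc finger factors of the immediate early response named after their values were seen, were at -0.05 ± 0.11 (adjusted p = 0.897) and 0.18 ± 0.19 (adjusted p = 0.767). Dusp1, a phosphatase that switches off MAP kinases, was at 3.06 (MLN) and 2.83 (PLN) on arrays labelled AID KO, against 4.55 to 4.67 on the 4 WT arrays, and fell by 1.66 ± 0.11 (adjusted p = 0.00555). Nr4a2, an orphan nuclear receptor that activated T cells express, fell by 2.16 ± 0.20 (adjusted p = 0.0183) and Klf4, a factor that restrains proliferation in CD8+ T cells, by 1.70 ± 0.16 (adjusted p = 0.0194). The fourth was Nr4a1, a relative of Nr4a2 named after its value was seen, which fell by 1.66 ± 0.16 (adjusted p = 0.0194). Of 21 alternatives, the call was lost in 3 for Dusp1, 7 for Nr4a2, 8 for Klf4 and 8 for Nr4a1.

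Of 10 measured genes with textbook AP-1 sites in T cells (12 listed), 2 fell, the cytokine gene Ifng by 1.47 ± 0.16 (adjusted p = 0.0267) and Cd69, an early activation receptor that holds cells in the node, by 0.92 ± 0.09 (adjusted p = 0.0184), and the median was -0.37. These calls were lost in 10 (Ifng) and 9 (Cd69) of 21 alternatives. Of 7 measured small MAF and NRF2 or BACH targets (10 listed) 0 passed, with a median of -0.02. None of the 10 heat shock and handling genes passed, with 9 below 0 and a median of -0.19. The lists were made with earlier results of these arrays known, so their counts are descriptions.

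**Figure D4:**
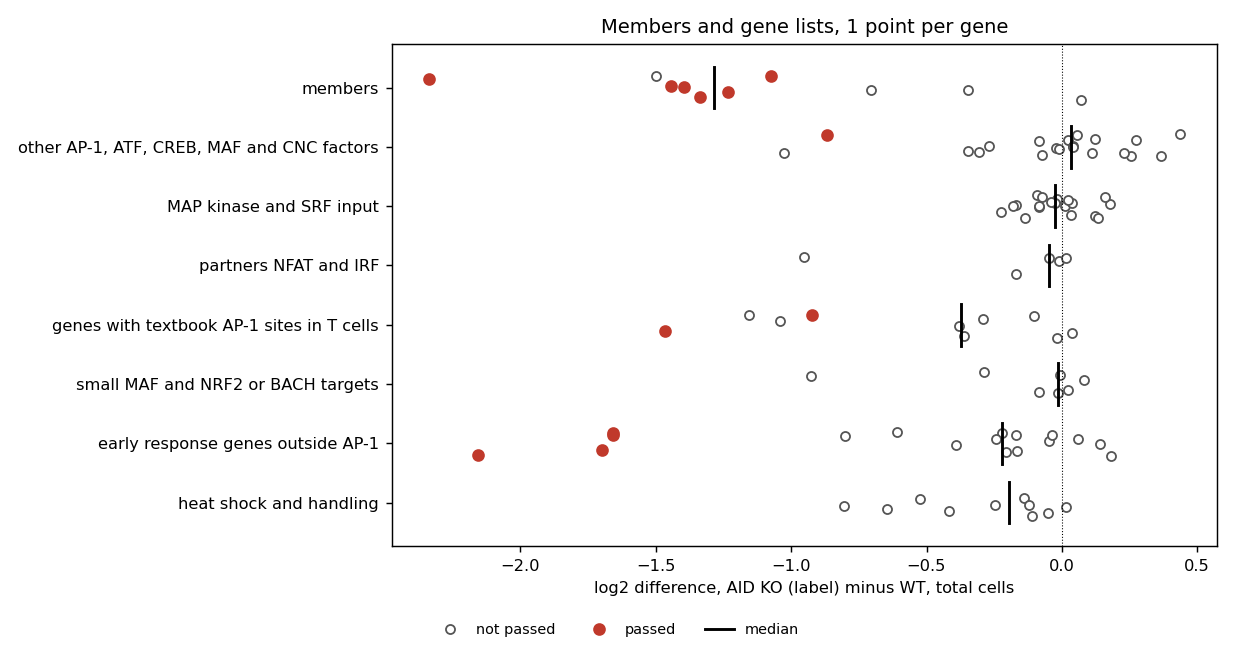
Log2 difference, AID KO by label minus WT in total cells (horizontal axis), for the 10 genes and for 7 lists, with 1 point per gene, filled where the adjusted p was under 0.05, Atf3 at its bound and a bar at each median. The 10 genes' median of -1.29, which does not depend on how far Atf3 lies under its bound, lies below that of each list, the next being -0.37 for the genes with AP-1 sites. The 10 genes were chosen with this contrast known, so nothing is read from that order.

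List genes also passed in other comparisons. In uMT versus AID KO, total cells, Dusp1 rose by 2.29 ± 0.12 (adjusted p = 0.00646), Klf4 by 1.90 ± 0.19 (adjusted p = 0.0367) and Cd69 by 1.39 ± 0.10 (adjusted p = 0.0145), and no other list gene passed. Of 21 alternatives, the call was lost in 5 for Dusp1, 15 for Klf4 and 10 for Cd69. In uMT versus WT 0 list genes passed, and in MLN versus PLN 1 did, Osgin1, an oxidative stress response gene, which rose by 2.42 ± 0.15 (adjusted p = 0.00603). The Osgin1 call was lost in 5 of 20 alternatives. The uMT minus AID KO difference was lower in naive than in total cells for Dusp1 (-2.37 ± 0.17, adjusted p = 0.0196) and Cd69 (-1.85 ± 0.14, adjusted p = 0.0205). It was also lower for Ccl4, a chemokine gene of activated CD8+ T cells (-1.69 ± 0.17, adjusted p = 0.0441). For each gene the difference was above 0 in total cells of both sites and below 0 in both naive fractions. For Ccl4 it was 0.70 (PLN) and 0.83 (MLN) against -1.04 (Sca1p) and -0.81 (Sca1m), from 1 array each. These calls were lost in 11 (Dusp1), 12 (Cd69) and 15 (Ccl4) of 19 alternatives.

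Over the 8 total-cell arrays the genes varied together with exceptions, as Pearson correlations of their log2 levels show. These are descriptions over 8 arrays that share 2 slides, and the 2 arrays labelled AID KO are the lowest points for most genes. Without Atf3, which was not well above background on 3 of the 8 arrays, 33 of 36 pairs were above 0, with a median of 0.65. The pairs Fos and Jun (0.96) and Fosl2 and Mafk (0.93) were each other's most like genes, and Batf had the lowest values, down to -0.54 with Mafk. The mean centred level of the 9 genes that were well above background on all 8 arrays was -0.63 (MLN) and -0.98 (PLN) on arrays labelled AID KO, 0.22 (MLN) and 0.21 (PLN) on uMT arrays and 0.10 to 0.50 on WT arrays. Among 2209 named genes with enough variation, the 6 most like this mean were Ifng (0.97), Plk3 (0.96), Maf (0.96), Nfkbiz (0.95), BC049715 (0.95) and Klf4 (0.95).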

How the data were processed

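RNA of sorted CD8+ T cells was hybridised to Agilent 1-colour arrays (Cy3), and each deposited scanner file was written with Agilent Feature Extraction 11.0.1.1, per the file headers. Its processed signal is an intensity from which the authors' software had subtracted the background. The deposited value table holds log2 values of the same signal (28384 probes), and its correlation with the scanner files was 1 on every array. An aligner or genome build plays no part, and the gene names follow the accession of each probe, matched to RefSeq: 32994 of 56605 probes had 1 symbol and the other 23611 none.

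Control spots and spots marked as outliers were left out (61 to 342 spots per array), 0 spots of the used set were saturated, and spots of a probe were averaged. Intensities were divided by the array's 75th percentile and taken to log2. A feature was kept if at least 2 arrays held it well above background, and a gene took its brightest such probe, which left 25738 features. The fit with limma 3.58.1 in R 4.3.3 covered all 12 arrays, with terms for node, slide and each knockout in total cells, and for a separate level, uMT and Sca1p in naive cells, leaving 4 residual degrees of freedom (3 with an interaction). Slide 3 held only the 4 naive arrays. P-values were adjusted by Benjamini-Hochberg over all features, with 0.05 as threshold. No label says which arrays came from separate animals, so p-values measure the spread between arrays, and their number limits the precision. Each feature had 1 spread over total and naive arrays together, so naive standard errors do not measure the naive arrays alone. For Fos the standard error was 0.13 in uMT versus AID KO in total cells and in both naive comparisons. The fit was tested on simulated data.

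The 10 genes, the gene lists and the comparisons were chosen with earlier results of these data known. Besides the 10 genes, the text names at most 3 passing genes per list and comparison by lowest p, and the 6 genes of highest correlation among those with an SD of at least 0.3. The alternatives were normexp background correction, quantile normalization, the authors' log2 value table, no filter or a filter of 4 arrays, the mean of a gene's probes, no slide term, each cell preparation alone, a block for the 4 pairs of a knockout and a WT array on 1 slide, and leaving out each array. For a given comparison several alternatives share fitted values or are the same fit, so counts of alternatives are not counts of independent checks. The files hold no mean signal, so normexp used the median signal and median background with an offset of 50. The check of the deleted genes against the genotype labels is not reported here.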

Additional observations from a re-analysis of the deposited data

Results flagged for a closer look

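In 5 genes the difference between uMT arrays and arrays labelled AID KO was itself different in naive and total CD8+ T cells, by limma's test of that difference with Benjamini-Hochberg adjustment over all features. Among the 10 factors these were Fos, at -2.38 ± 0.18 (adjusted p = 0.0205), and Jun, at -1.64 ± 0.17 (adjusted p = 0.0465). Among the listed genes they were Dusp1 at -2.37 ± 0.17 (adjusted p = 0.0196), Cd69 at -1.85 ± 0.14 (adjusted p = 0.0205) and Ccl4 at -1.69 ± 0.17 (adjusted p = 0.0441). Of 19 alternatives, the call was lost in 10 for Fos, 15 for Jun, 11 for Dusp1, 12 for Cd69 and 15 for Ccl4. The naive arrays all lay on 1 slide and came from PLN, so the gate and the slide cannot be told apart in these values. Within PLN alone, the total-cell difference of 1 array each was 2.12 for Fos, 1.51 for Jun, 2.30 for Dusp1, 1.06 for Cd69 and 0.70 for Ccl4, against Sca1p naive differences of -0.67, -0.45, -0.14, -0.56 and -1.04 in the same order.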

How the results depend on the processing

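In AID KO versus WT, 8 of the 9 genes measured on all arrays were below 0 in every setting run, while the number of calls varied. The median and range of the 9 stayed at -1.23 and -2.34 to 0.07 with either other filter, no slide term or total-cell arrays alone. They also did so without any 1 uMT or naive array. Only the remaining settings were separate checks of direction. Total-cell arrays alone and each fit without 1 naive array called 165 features alike. With 4 residual degrees of freedom the cause of each shift was not tested. Most groups hold 1 array.

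The counts below are of all features called. AID KO versus WT called 226, against 362 with normexp, 423 in the value table, 50 with no filter on dim probes, 363 with the filter of 4 arrays, 86 with no slide term and 1 with the block of matched pairs, and 1 to 165 when single arrays were left out. uMT versus WT called 9, against 53 with normexp, 18 with quantile normalization, 26 in the value table, 0 with no filter, 47 with the filter of 4 arrays, 2 with no slide term and 0 with the block, and 0 to 9 without single arrays. uMT versus AID KO in total cells called 79, against 166 with normexp, 18 with no filter, 156 with the filter of 4 arrays, 29 with no slide term, 38 with total-cell arrays alone and 1 with the block, and 1 to 38 without single arrays. MLN versus PLN called 28, against 60 with normexp, 44 in the value table, 16 with no filter and 57 with the filter of 4 arrays, and 2 to 24 without single arrays. Sca1p versus Sca1m called 4, against 11 with normexp, 8 in the value table, 0 with no filter, 11 with the filter of 4 arrays, 2 with no slide term and 0 with naive arrays alone, and 0 to 175 without single arrays. uMT versus AID KO in naive cells called 91, against 29 with normexp, 10 in the value table, 37 with the filter of 4 arrays, 56 with no slide term and 0 with naive arrays alone, and 25 to 205 without single arrays. Its contrast with total cells called 51, against 21 in the value table, 3 with no filter, 27 with the filter of 4 arrays and 23 with no slide term, and 0 to 136 without single arrays. AID KO by site called 0, and 0 without single arrays. uMT by site called 2, against 18 with normexp, 0 in the value table, 1 with no filter and 1 with total-cell arrays alone, and 0 to 1 without single arrays. Sca-1 fraction by genotype called 26, against 14 with normexp, 72 in the value table, 710 with no filter, 10 with the mean of a gene's probes and 1 with no slide term, and 0 to 2 without single arrays.

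Differences that turned sign had all missed the threshold. In uMT versus WT, leaving out single arrays gave -0.43 to 1.04 for Fosb (lowest without uMT PLN), -0.0072 to 0.17 for Jun and -0.21 to 0.46 for Junb (both lowest without uMT MLN), and the mean of its probes gave -0.0595 for Junb. In MLN versus PLN, leaving out single arrays gave -0.10 to 0.17 for Junb, -0.0300 to 0.0087 for Jund and -0.0006 to 0.94 for Atf3, and Jund was at 0.0120 with quantile normalization and 0.0508 with the mean of its probes. In Sca1p versus Sca1m, leaving out single arrays gave -0.0213 to 0.069 for Fos, -0.10 to 0.12 for Fosl2, -0.13 to 0.19 for Junb and -0.0342 to 0.0474 for Mafk. In the same comparison normexp gave -0.0618 for Fos, -0.0732 for Fosl2, -0.0766 for Junb and 0.0303 for Jund, quantile normalization gave -0.0268 for Fos and -0.13 for Junb, and the value table gave -0.0269 and -0.13. In uMT versus AID KO, naive cells, leaving out single arrays gave -0.25 to 0.0651 for Junb and -0.17 to 0.0598 for Batf, and normexp gave 0.0172 for Junb.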
